A study of Mus musculus with 8 samples.

Results

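The genes described here are the 10 enzymes and subunits of the methionine cycle and of transsulfuration in mouse liver: Mat1a, Mat2a, Mat2b, Gnmt, Ahcy, Bhmt, Bhmt2, Mtr, Cbs and Cth. They were chosen by name, with earlier results of these data known, and all 10 are among the 35204 gene rows of the table. All 10 also passed the filter on low values, a mean of at least 10 normalised counts over the libraries, which left 14171 genes to test. Poly-A RNA of liver pieces gave 8 libraries. The 3 of the control group are from wild-type C57BL/6J mice with no treatment. The 5 other libraries, called TAZ-CCl4 here, came from C57BL/6J mice whose genotype is also given as wild type and that carried EF1a-TAZS89A, delivered by HTVI (in this field, hydrodynamic tail vein injection, which brings plasmid DNA mainly into hepatocytes). TAZS89A is a form of the coactivator TAZ without a site at which the Hippo pathway phosphorylates it, and EF1a in the name of the construct is that of a promoter active in most cell types. These mice also received carbon tetrachloride (CCl4), a liver toxin, 30 times at 3 doses a week over 10 weeks. No group received the construct alone or CCl4 alone, and the labels give the 2 groups 2 different project IDs, so construct, toxin and project cannot be told apart. The labels used here state neither age nor sex. The labels number the libraries but do not state whether every library is its own mouse, so the tests below gauge differences against a spread that can be partly technical.

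As background, the liver converts most dietary methionine to S-adenosylmethionine (SAM), the methyl donor of the cell. Mat1a encodes the SAM synthetase of adult hepatocytes, and Mat2a encodes the form made in other tissues, in fetal liver and in dividing liver cells, with Mat2b as its regulatory subunit. A fall of Mat1a relative to Mat2a is a well-known feature of injured, regenerating and cancerous liver. Methyl transfer leaves S-adenosylhomocysteine (SAH), which Ahcy splits to homocysteine. Homocysteine is either remethylated to methionine, by Bhmt and Bhmt2 or by Mtr, or drained by Cbs and Cth to cysteine, the precursor of glutathione and taurine.

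Values are normalised counts, which the authors had put on a common scale with a factor for each library, and their totals ran from 29.8 to 35.1 M among controls and from 12.4 to 14.2 M among TAZ-CCl4 libraries. Fold changes are on the log2(value + 1) scale and are called at an adjusted p under 0.05 from limma, with Benjamini-Hochberg adjustment over all tested genes. The median gene moved by 0.03 (log2) as deposited and by 1.26 after scaling each library to the same total, so changes are read against these medians. Wwtr1, the gene of TAZ, stood at 280 to 463 in the controls and 4339 to 9021 in the TAZ-CCl4 libraries, in accordance with the labels. The 8 hepatocyte markers summed to 2257253 to 2680143 in the controls and 920175 to 1397020 in the TAZ-CCl4 libraries, so hepatocyte transcripts were abundant in every library of both groups.

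The promoters of Bhmt and Gnmt, which fell, and of Mat2a, which did not pass the test, are shown because these 3 genes mark the contrast within the cycle. Each run is the 250 bases before the RefSeq start site (GRCm38.p6, the build also called mm10), 5′ to 3′ on the minus strand on which all 3 genes lie. They span chr13:93637759-93638008, chr17:46729166-46729415 and chr6:72439557-72439806. The RefSeq start of Bhmt used here lies within the gene as GENCODE draws it, so that 203 of the 250 bases are inside the GENCODE gene, against 3 for Gnmt and 2 for Mat2a. Capitals mark matches on either strand to TATAAA (the core promoter element), the CCAAT box, the SP1 motif GGGCGG, the MYC motif CACGTG, the TEAD motif GGAATG and the sequence CAAAGGTCA (a form of the HNF4A repeat, chosen after the Bhmt promoter had been read).
Bhmt: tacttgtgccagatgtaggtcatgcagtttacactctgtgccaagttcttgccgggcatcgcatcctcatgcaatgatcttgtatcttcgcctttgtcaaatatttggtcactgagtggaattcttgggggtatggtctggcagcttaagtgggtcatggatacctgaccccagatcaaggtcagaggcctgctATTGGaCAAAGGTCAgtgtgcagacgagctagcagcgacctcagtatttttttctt
Gnmt: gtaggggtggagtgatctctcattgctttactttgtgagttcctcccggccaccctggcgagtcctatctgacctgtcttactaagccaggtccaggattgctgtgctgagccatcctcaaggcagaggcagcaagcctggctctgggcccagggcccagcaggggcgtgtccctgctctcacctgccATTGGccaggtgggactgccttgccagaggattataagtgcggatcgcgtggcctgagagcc
Mat2a: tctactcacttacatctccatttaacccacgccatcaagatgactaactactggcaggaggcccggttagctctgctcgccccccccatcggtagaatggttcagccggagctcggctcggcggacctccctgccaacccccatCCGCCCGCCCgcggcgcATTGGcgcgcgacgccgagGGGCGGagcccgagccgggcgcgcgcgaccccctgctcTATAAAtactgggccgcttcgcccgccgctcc

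Of the 10 genes, 8 had a promoter in the table (Mat1a and Cth did not). In Bhmt a CCAAT match began 56 bases before the start and CAAAGGTCA 50 bases before it. In Gnmt the only match was a CCAAT 62 bases before the start. In Mat2a a TATAAA began 32 bases, a CCAAT 89 bases and GGGCGG matches 106, 102 and 70 bases before the start, the first 2 of which overlap. TATAAA was found in 12.4% of the 32851 promoters searched, CCAAT in 33.8%, GGGCGG in 32.7%, CACGTG in 6.02%, GGAATG in 12.6% and CAAAGGTCA in 0.426%. GGAATG was in none of the 8 windows, and CACGTG only in that of Cbs. The windows of Bhmt and Gnmt held 5 and 6 CpG dinucleotides, near the median of 6 over all promoters, and that of Mat2a held 29, more than 93.2% of promoters. Of the other windows, that of Mat2b lies wholly within the GENCODE gene and that of Cbs by 33 bases. The CpG count did not follow the calls across the 8 genes, since Bhmt2 and Cbs, which fell, held 20 and 21 and Mtr, which did not pass, held 20. These matches describe the letters in these windows and say nothing about what binds there.

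The genes that use SAM, remake methionine from betaine and drain homocysteine were lower in TAZ-CCl4 libraries, and the 3 genes of SAM synthesis and Mtr did not pass the test. Of the 10 genes, 6 fell (Gnmt, Ahcy, Bhmt, Bhmt2, Cbs and Cth), 0 rose and 4 did not pass (limma; 0 of the 10 were higher also at an unadjusted p under 0.05). Of all tested genes 29.8% were called lower and 32.4% higher. The same 6 genes had groups that did not overlap, each lower in 5 of 5 TAZ-CCl4 libraries, against 29.4% of all tested genes that were lower without overlap. The median log2 fold change of the 10 genes was -1.16. In bulk tissue, fewer hepatocytes and less RNA per hepatocyte cannot be told apart.

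**Figure D1:**
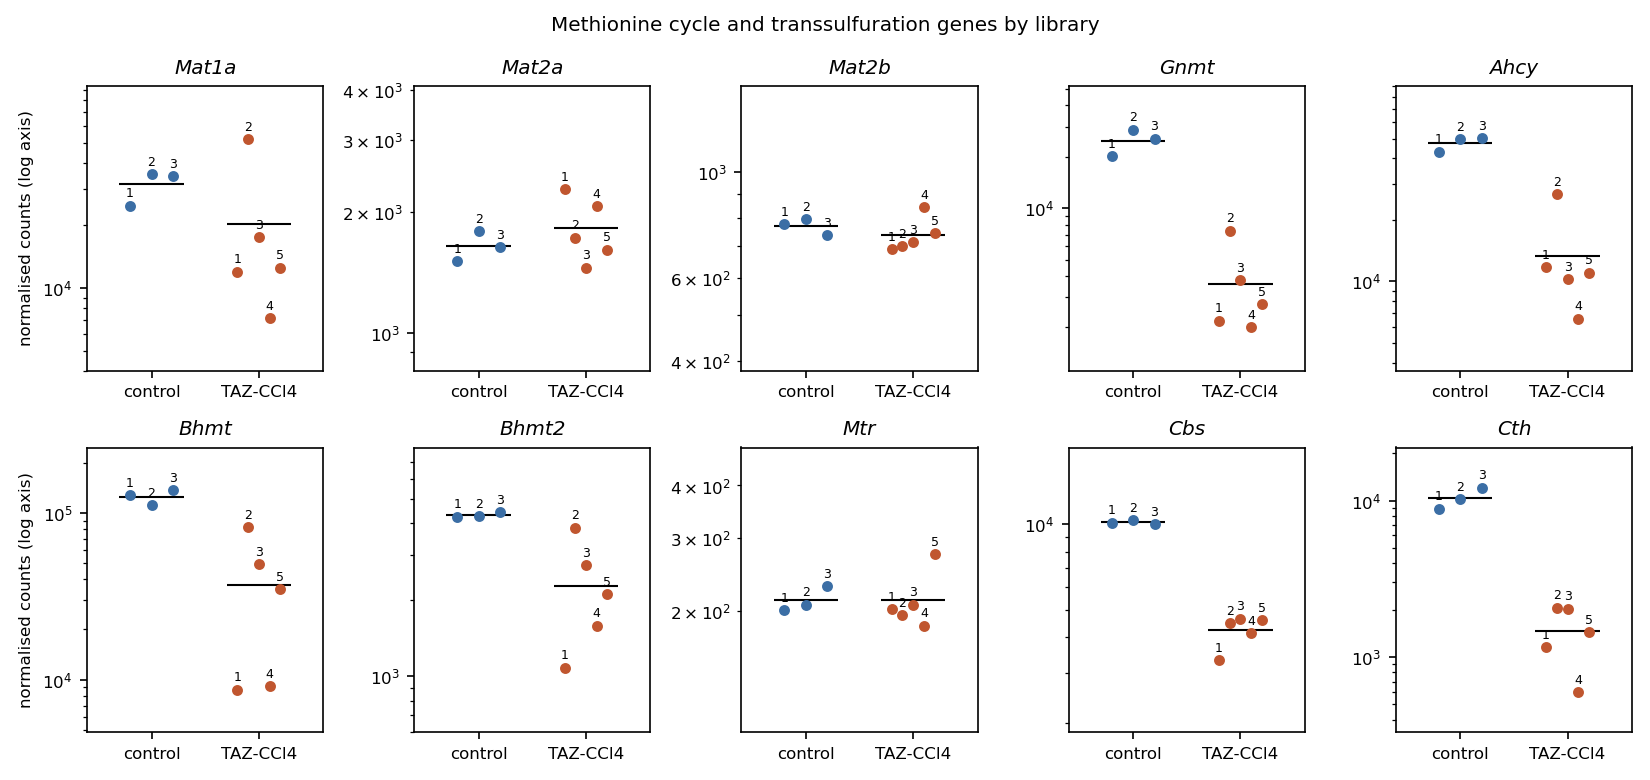
Normalised counts of the 10 genes in each library (log axes, each panel with its own range). Points are libraries, numbered by replicate, and lines are group means. The groups are apart for Gnmt, Ahcy, Bhmt, Bhmt2, Cbs and Cth and overlap for Mat1a, Mat2a, Mat2b and Mtr.

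Mat1a (GRCm38 chromosome 14, 41105035 to 41124412) stood at 24885, 35311 and 34604 in control replicates 1 to 3. It stood at 11991, 52047, 17616, 7186 and 12513 in TAZ-CCl4 replicates 1 to 5. 4 of the 5 TAZ-CCl4 libraries lay below every control, and replicate 2 lay above every control. The means were 31600 ± 5826 (SD, n = 3) and 20271 ± 18143.5 (SD, n = 5), or 12326 ± 4265 without TAZ-CCl4 replicate 2. The log2 fold change was -0.98 ± 0.52 (SE) and did not pass (limma, adjusted p = 0.123; 95% interval -2.13 to 0.17). Without TAZ-CCl4 replicate 2 it was -1.41 ± 0.29 and passed (limma, adjusted p = 0.00235), beside 30.3% of tested genes called lower in that fit. Under every other omission of 1 library Mat1a did not pass (limma, adjusted p = 0.144 to 0.254). After scaling to equal totals its log2 fold change was 0.27, which did not pass either.

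Mat2a (chromosome 6, 72432799 to 72439558) measured 1507, 1789 and 1634 in control replicates 1 to 3, against 2273, 1725, 1452, 2060 and 1610 in TAZ-CCl4 replicates 1 to 5. Replicates 1 and 4, the 2 libraries with the least Mat1a, were the only ones above every control, and replicate 3 lay below them all. The group means were 1643 ± 141 (SD, n = 3) and 1824 ± 336 (SD, n = 5), and the fitted log2 fold change was 0.13 ± 0.16 (SE; limma, adjusted p = 0.480), with a 95% interval of -0.22 to 0.49. Mat2b (chromosome 11, 40679314 to 40695203), the regulatory subunit, spanned 736 to 796 in the controls and 688 to 842 in the TAZ-CCl4 libraries, a highest-to-lowest ratio of 1.22 in TAZ-CCl4 libraries that was the smallest of the 10 genes. Its log2 fold change was -0.07, with an interval of -0.32 to 0.19. Of the 31-base words of the Mat2a transcript 18.1% also occur in other genes, and the one that shares most, Gm9523, was listed at 0 in all libraries.

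The balance of the SAM synthetases was taken as the ratio of Mat1a to Mat2a within a library, which a factor on the whole library does not move. The cell make-up of the tissue can move it, and its part was not tested. The ratio was 16.5, 19.7 and 21.2 in the controls and 5.28, 30.2, 12.1, 3.49 and 7.77 in TAZ-CCl4 replicates 1 to 5. It was thus below every control in 4 of 5 TAZ-CCl4 libraries and above every control in replicate 2. On the log2 scale it averaged 4.25 ± 0.19 (SD, n = 3) and 3.13 ± 1.20 (SD, n = 5), a difference of -1.12 that did not pass (exact two-sided permutation test, p = 0.214; the smallest p that 3 against 5 libraries allow is 0.0357). Without replicate 2 the difference was -1.56 (exact permutation p = 0.0571, the smallest that 3 against 4 allow). With all 8 libraries at quantile normalisation, which does more than scale whole libraries, the difference was -0.11 (exact permutation p = 0.857). Mat1a remained the more abundant of the pair in all 8 libraries, also per kilobase of their longest coding transcripts (3468 and 3387 bases), where the ratio ran from 3.41 to 29.5. The longest transcripts of the pair share no stretch of 31 bases, the default word length of kallisto, so reads of one were not readily counted for the other. The ratio of Mat2a to Mat2b was 1.94 to 2.25 in the controls and 2.04 to 3.31 in the TAZ-CCl4 libraries, with overlap.

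**Figure D2:**
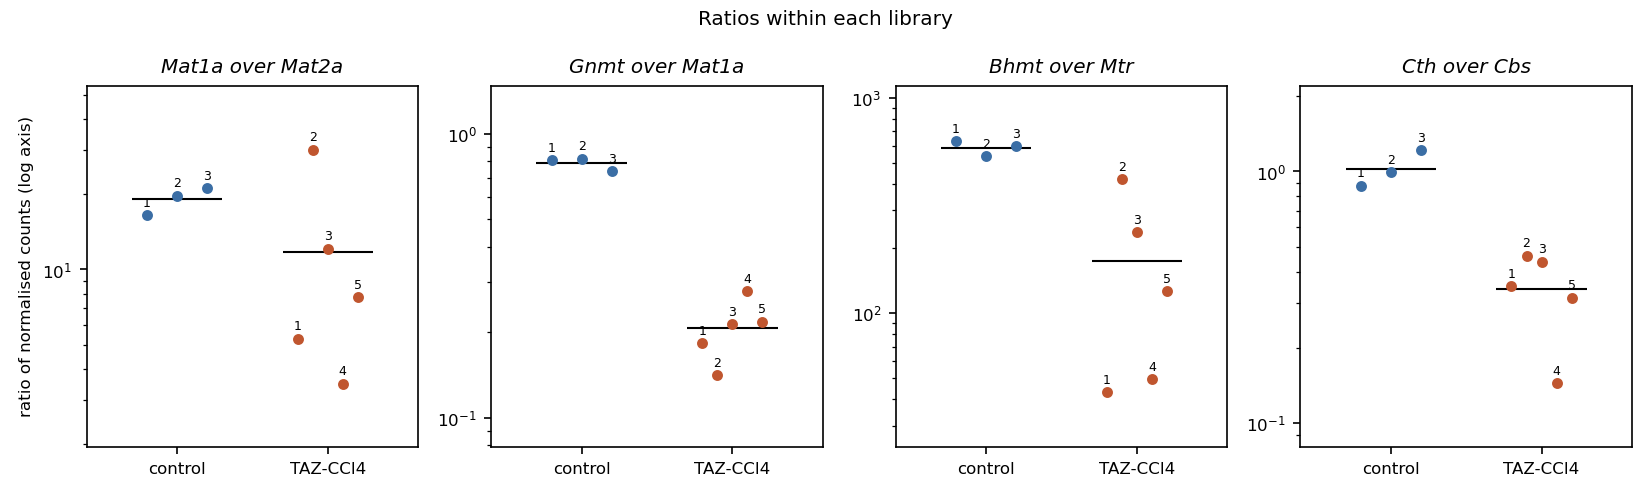
Ratios of normalised counts within each library (log axes) for Mat1a over Mat2a, Gnmt over Mat1a, Bhmt over Mtr and Cth over Cbs. Points are libraries, numbered by replicate, and lines are group means. The Mat1a to Mat2a ratio of TAZ-CCl4 replicate 2, 30.2, is above the controls, whereas the other 3 ratios are below the controls in all 5 TAZ-CCl4 libraries.

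Gnmt (chromosome 17, 46725664 to 46729168), the glycine methyltransferase that disposes of excess SAM in hepatocytes, was at 20111, 28858 and 25507 in the controls. In the TAZ-CCl4 libraries it was at 2196, 7379, 3769, 2003 and 2726. Even the highest of these, again replicate 2, was far below the lowest control. Gnmt fell from 24825.5 ± 4413 (SD, n = 3) to 3615 ± 2213 (SD, n = 5), 6.87-fold between means, and the fitted log2 fold change was -2.94 ± 0.37 (SE; limma, adjusted p = 7.59e-05). Gnmt was also lower relative to Mat1a: the ratio was 0.737 to 0.817 in the controls and 0.142 to 0.279 in the TAZ-CCl4 libraries, and it was lowest in replicate 2, the library rich in Mat1a.

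Ahcy (chromosome 2, 155059310 to 155074497), the only vertebrate route for splitting SAH, measured 43192, 49674 and 50233 in control replicates 1 to 3, against 11732, 26790, 10284, 6566 and 11035 in TAZ-CCl4 replicates 1 to 5. All TAZ-CCl4 values were below the controls, and replicate 2 stood apart from the other 4. Ahcy fell from 47700 ± 3914 (SD, n = 3) to 13281 ± 7811 (SD, n = 5), and the fitted log2 fold change was -2.01 ± 0.37 (SE; limma, adjusted p = 8.60e-04). Of the 31-base words of its transcript 76.5% also occur in Gm4737, a close copy on chromosome 16, so its reads could have been divided. Gm4737 was listed at 20.4 to 49.0 in the controls and at 0 to 10.3 in the TAZ-CCl4 libraries, small beside Ahcy. Antisense genes of GENCODE lie over Ahcy (Gm45609) and Bhmt (Gm15622); use of strand is not stated, so reads of either partner cannot be told apart.

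Bhmt (chromosome 13, 93616675 to 93637961), the betaine-homocysteine methyltransferase and the most abundant of the 10 genes, was at 127110, 110900 and 136948 in the controls. It was at 8695, 82060, 49468, 9110 and 34747 in TAZ-CCl4 replicates 1 to 5. These values span 9.44-fold, the widest spread of the 10 genes, from well below the controls in replicates 1 and 4 to a modest difference in replicate 2. The means were 124986 ± 13153 (SD, n = 3) and 36816 ± 30699.5 (SD, n = 5), and the log2 fold change was -2.28 ± 0.70 (SE; limma, adjusted p = 0.0160; 0.0515 without control replicate 3). Of its 31-base words 63.4% also occur in Gm5096, a close copy, which was listed at 71.8 to 94.2 in the controls and 5.44 to 55.9 in the TAZ-CCl4 libraries.

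Bhmt2 (chromosome 13, 93655720 to 93674302), the neighbour of Bhmt, whose enzyme takes its methyl group from S-methylmethionine, measured 4248, 4259 and 4427 in control replicates 1 to 3, against 1079, 3847, 2731, 1582 and 2105 in TAZ-CCl4 replicates 1 to 5. The 5 libraries ranked as they did for Bhmt at the top, with replicates 2, 3 and 5 in that order, and also below, with replicate 4 above replicate 1. The log2 fold change was -1.06 ± 0.34 (SE; limma, adjusted p = 0.0189), and the call was lost without any 1 of the controls (adjusted p = 0.0514 to 0.0566). Mtr (chromosome 13, 12182712 to 12258113), the folate- and cobalamin-dependent methionine synthase, measured 202, 207 and 230 in control replicates 1 to 3, against 203, 196, 207, 185 and 274 in TAZ-CCl4 replicates 1 to 5. The groups overlapped, and the log2 fold change was -0.01 ± 0.17 (SE; limma, adjusted p = 0.953), with a 95% interval of -0.39 to 0.36. The 2 remethylation routes thus differed within a library: Bhmt over Mtr was 535 to 630 in the controls and 42.9 to 419 in the TAZ-CCl4 libraries.

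Cbs (chromosome 17, 31608894 to 31637238), cystathionine beta-synthase, which commits homocysteine to transsulfuration, measured 10102, 10330 and 9976 in control replicates 1 to 3, against 3329, 4477, 4646, 4128 and 4598 in TAZ-CCl4 replicates 1 to 5. Both groups were tight and far apart, with coefficients of variation of 1.77% and 12.9%. The log2 fold change was -1.27 ± 0.14 (SE; limma, adjusted p = 3.23e-05). Cth (chromosome 3, 157894248 to 157925077), cystathionine gamma-lyase, which releases cysteine, measured 8860, 10244 and 12106 in control replicates 1 to 3, against 1164, 2072, 2039, 597 and 1451 in TAZ-CCl4 replicates 1 to 5. It fell from 10403 ± 1629 (SD, n = 3) to 1465 ± 621 (SD, n = 5), 7.10-fold between means, and the fitted log2 fold change was -2.95 ± 0.36 (SE; limma, adjusted p = 5.64e-05). Cth over Cbs was 0.877 to 1.21 in the controls and 0.145 to 0.463 in the TAZ-CCl4 libraries, so the second enzyme of the route was lower relative to the first in every TAZ-CCl4 library.

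Per kilobase of the longest principal transcript, Bhmt led the controls at 50195 ± 5282, followed by Gnmt at 23986 ± 4264, Ahcy at 18757 ± 1539, Mat1a at 9112 ± 1680 and Cth at 5732 ± 897 (normalised counts per kilobase; SD, n = 3). Gnmt and Ahcy overlapped in this order, and the others did not. Bhmt2 at 1748, Cbs at 1628, Mat2a at 586, Mat2b at 395 and Mtr at 25.7 made up the rest, and the place of Cbs depends on the transcript taken, since its other principal transcript gives 4002. In the TAZ-CCl4 libraries Bhmt still led, at 14786 ± 12329 per kilobase (SD, n = 5), with Mat1a at 5845 ± 5232, Ahcy at 5223 ± 3071 and Gnmt at 3492 ± 2138, which overlapped one another and Bhmt. Bhmt2 at 920, Cth at 807, Cbs at 680 and Mat2a at 650 followed, also with overlap, and Mat2b at 378 and Mtr at 25.7 came last.

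The 5 TAZ-CCl4 libraries varied far more than the controls in Mat1a, Bhmt, Gnmt and Ahcy. The coefficient of variation was 89.5% for Mat1a, 83.4% for Bhmt, 61.2% for Gnmt and 58.8% for Ahcy, against 8.20% to 18.4% for these 4 genes in the controls. Replicate 2 was the highest of the 5 for Mat1a, Gnmt, Ahcy, Bhmt, Bhmt2 and Cth, and replicate 1 or replicate 4 the lowest for the same 6 genes. For Mat2a the order differed, with replicates 1 and 4 on top. The 10 genes together made up 0.687% to 0.927% of the signal in the controls and 0.340%, 1.34%, 0.657%, 0.277% and 0.532% in TAZ-CCl4 replicates 1 to 5. Among the 8 hepatocyte markers replicate 2 was the highest of the 5 for Apoa1 (153329), Apob (54741) and Fgb (79020) and the lowest for Alb (471110) and Ttr, and its marker sum, most of which is Alb and Trf, was the third highest at 1038791. Its 6 markers of dividing cells summed to 1993, the lowest of the 5, against 2783 to 5794 in the other 4. Whether these have a part in the difference between libraries was not tested.

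**Figure D3:**
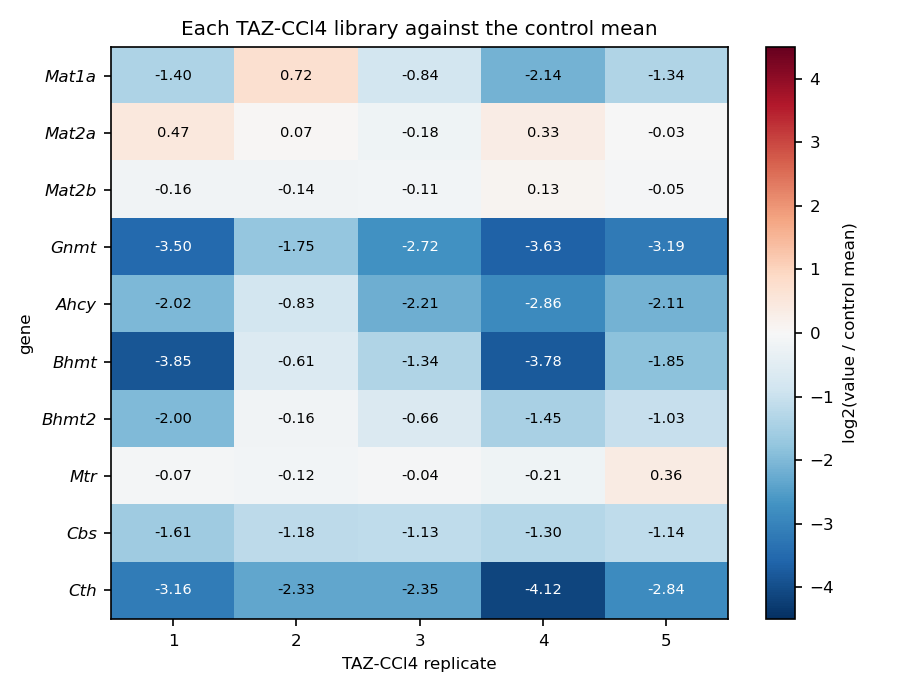
Log2 of each TAZ-CCl4 value over the control mean, by gene (rows) and replicate (columns), with blue below and red above the controls. Replicate 2 is the palest column, with Mat1a at 0.72, and replicates 1 and 4 are darkest for Gnmt and Bhmt.

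How far the 10 genes moved depended on the scaling. After scaling to equal totals, 2 of the 10 were lower (Gnmt, with a log2 fold change of -1.69, and Cth, -1.70) and 3 were higher (Mat2a, 1.39, Mat2b, 1.18, and Mtr, 1.23), while 6.37% of all tested genes were lower and 76.3% higher. The rises of Mat2a, Mat2b and Mtr there were close to the shift of the median gene, 1.26. Scaled to equal Alb, which sets each gene against a major hepatocyte transcript, the same 2 genes were lower (-1.78 and -1.79) and the same 3 higher (1.29, 1.09 and 1.14), with 6.33% of tested genes lower and 68.5% higher and a median of 1.17. Cbs, called at the deposited scaling, stood at -0.02 at equal totals and -0.11 at equal Alb, and Bhmt2 at 0.19 and 0.10. At quantile normalisation the same 2 genes were lower and Mat2a higher, beside 29.8% of tested genes lower and 27.8% higher. With Mup and mitochondrial genes left out of the totals, 4 were lower (Gnmt, Ahcy, Cbs and Cth) and 3 higher (Mat2a, Mat2b and Mtr), beside 10.7% and 62.9%. Gnmt and Cth were called lower at each of the 6 scalings tried, the deposited one included, and under every omission of 1 library.

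**Figure D4:**
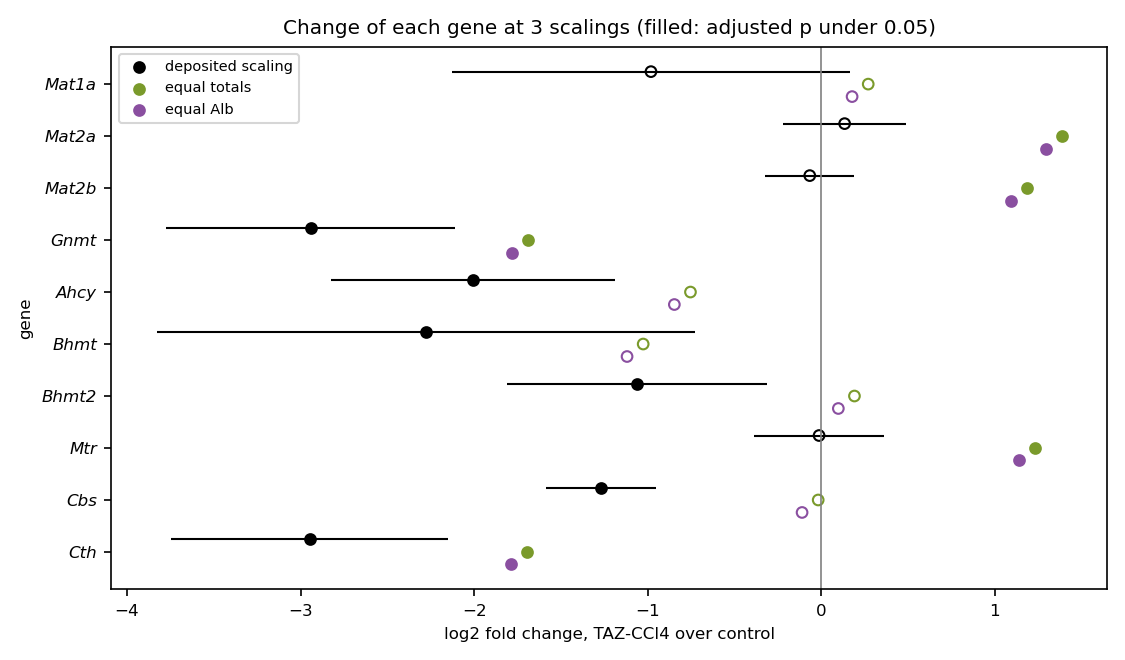
Log2 fold change of each gene at the deposited scaling (black, with 95% interval), at equal totals (green) and at equal Alb (purple). Filled points passed at an adjusted p under 0.05. Gnmt and Cth are filled and below 0 in all 3 settings, and Mat2a, Mat2b and Mtr lie near 0 as deposited and above 1 in the other 2.

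Around the cycle, 52 further genes in 6 lists were measured and 51 tested, of which 26 fell, 8 rose and 17 did not pass, and their median was -0.59 on the log2 scale, against 0.03 over every gene tested, of which 29.8% were lower and 32.4% higher. At equal totals 10 of the 51 were lower and 27 higher, beside 6.37% and 76.3% of all tested genes. Of 7 genes that supply methyl groups to homocysteine or clear the products, 4 fell (Dmgdh, Sardh, Pipox and Aldh7a1). Dmgdh, the dimethylglycine dehydrogenase that follows Bhmt in betaine breakdown, fell from 11661 ± 806 (SD, n = 3) to 1802 ± 760 (SD, n = 5), and Sardh, the sarcosine dehydrogenase that takes up the product of Gnmt, from 21395 ± 678 to 4487 ± 1313. On the log2 scale Dmgdh fell by 2.81 and Sardh dropped by 2.31 (limma, adjusted p = 4.40e-05 and 1.91e-05), and both were also called lower at equal totals. The groups were apart for both genes.

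Of 8 small-molecule methyltransferases, which spend SAM, 6 fell, from Hnmt at -0.42 to Nnmt, and 2 did not pass. Over all tested genes 29.8% were called lower and 32.4% higher. The call of Hnmt was lost without any 1 control or without TAZ-CCl4 replicate 1, 3 or 5 (limma, adjusted p = 0.0637 to 0.141), and that of Tpmt, at -0.62, without control replicate 1 or 2 (0.0847 and 0.0622). At equal totals 3 of the 8 were lower and 4 higher, among the latter Hnmt and Tpmt. Nnmt, which methylates nicotinamide, measured 2619, 1805 and 1571 in control replicates 1 to 3, against 93.1, 154, 229, 53.2 and 118 in TAZ-CCl4 replicates 1 to 5 (log2 fold change -4.06 ± 0.40; limma, adjusted p = 1.26e-05). Gamt, the last enzyme of creatine synthesis, fell by 2.18 on the log2 scale. Both were called lower at equal totals too. Of 5 genes for the removal of SAH and adenosine and for SAM sensing, 3 fell (Adk, Ahcyl1 and Ahcyl2), Bmt2 (the SAM sensor SAMTOR) rose and Mettl16, an RNA methyltransferase that controls Mat2a splicing, did not pass, at 0.40. The call of Bmt2, at 0.47, was lost without any 1 control or without TAZ-CCl4 replicate 1, 4 or 5 (limma, adjusted p = 0.0583 to 0.164). Adk, adenosine kinase, fell from 12000 ± 851 (SD, n = 3) to 4454 ± 1105 (SD, n = 5), and Ahcyl2, an Ahcy-like gene, by 0.78 on the log2 scale, a call lost without control replicate 1 (limma, adjusted p = 0.0808). Neither was called at equal totals, where Ahcyl1 was called higher, at 0.57 (limma, adjusted p = 0.00162). There 0 of the 5 genes were lower and 3 higher, beside 6.37% and 76.3% of all tested genes.

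The polyamine and methionine salvage list, which draws on SAM through Amd1, had 5 of 14 genes lower and 5 higher. These counts are close to the shares over all tested genes, 29.8% lower and 32.4% higher. Smox, spermine oxidase, rose from 53.7 ± 4.25 (SD, n = 3) to 231 ± 76.8 (SD, n = 5), and Paox, the peroxisomal polyamine oxidase, fell from 1367 ± 40.8 to 260 ± 50.9. The groups were apart for both, with log2 fold changes of 2.03 and -2.41 (limma, adjusted p = 9.77e-05 and 2.02e-06). Among the other genes of the list, named after their values were seen, Odc1, which starts polyamine synthesis, rose by 1.64 and Amd1 by 0.43 on the log2 scale, the latter not called without control replicate 2 (limma, adjusted p = 0.0601). At equal totals 10 of the 14 were higher and Paox lower, beside 76.3% of all tested genes higher and 6.37% lower.

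Of 9 genes from cysteine to glutathione, 3 fell (Chac1, Chac2 and Oplah), Ggt1 rose and 5 did not pass. The count of 3 lower is close to the share over all tested genes, of which 29.8% were lower and 32.4% higher. Those that did not pass include Gclc at -0.47 (-0.12 without TAZ-CCl4 replicate 2) and Gclm at -0.29, the subunits of the first enzyme of glutathione synthesis. Ggt1, the glutathione-degrading gamma-glutamyltransferase of fetal liver and bile ducts, rose from 9.39, 0 and 3.92 in the controls to 240, 118, 78.0, 964 and 180 in the TAZ-CCl4 libraries. Its TAZ-CCl4 mean of 316 was 154 without replicate 4, and its control mean of 4.43 was 1.96 without control replicate 1. It was called higher (limma), but passed the filter only through the TAZ-CCl4 libraries, and since its controls are near 0 the size of the fitted change depends on the pseudocount and is not given. Chac1, a glutathione-degrading enzyme of the stress response, fell by 2.29 on the log2 scale, from 161 to 38.0 (25.0 without TAZ-CCl4 replicate 1). That call was lost without control replicate 1 or 3 (limma, adjusted p = 0.0809 and 0.0742) and at equal totals. At equal totals 0 of the 9 genes were lower and 5 higher, beside 6.37% and 76.3% of all tested genes.

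Of 8 tested genes of cysteine oxidation, taurine and sulfide (Gadl1 did not reach the minimum), 5 fell (Cdo1, Ethe1, Mpst, Suox and Tst) and 3 did not pass. Over all tested genes 29.8% were called lower and 32.4% higher. Cdo1, cysteine dioxygenase, measured 41334, 43067 and 42428 in control replicates 1 to 3, against 2529, 8946, 8904, 3517 and 6411 in TAZ-CCl4 replicates 1 to 5. Replicates 1 and 4, lowest for Bhmt and Gnmt, were lowest here too. The log2 fold change was -2.97 ± 0.40 (SE; limma, adjusted p = 1.02e-04), and Ethe1, a mitochondrial sulfur dioxygenase, fell by 2.10 on the log2 scale. Csad, which makes the precursor of taurine from the product of Cdo1, did not pass, at -0.64. At equal totals 4 of the 8 were lower and 2 higher, beside 6.37% and 76.3% of all tested genes.

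**Figure D5:**
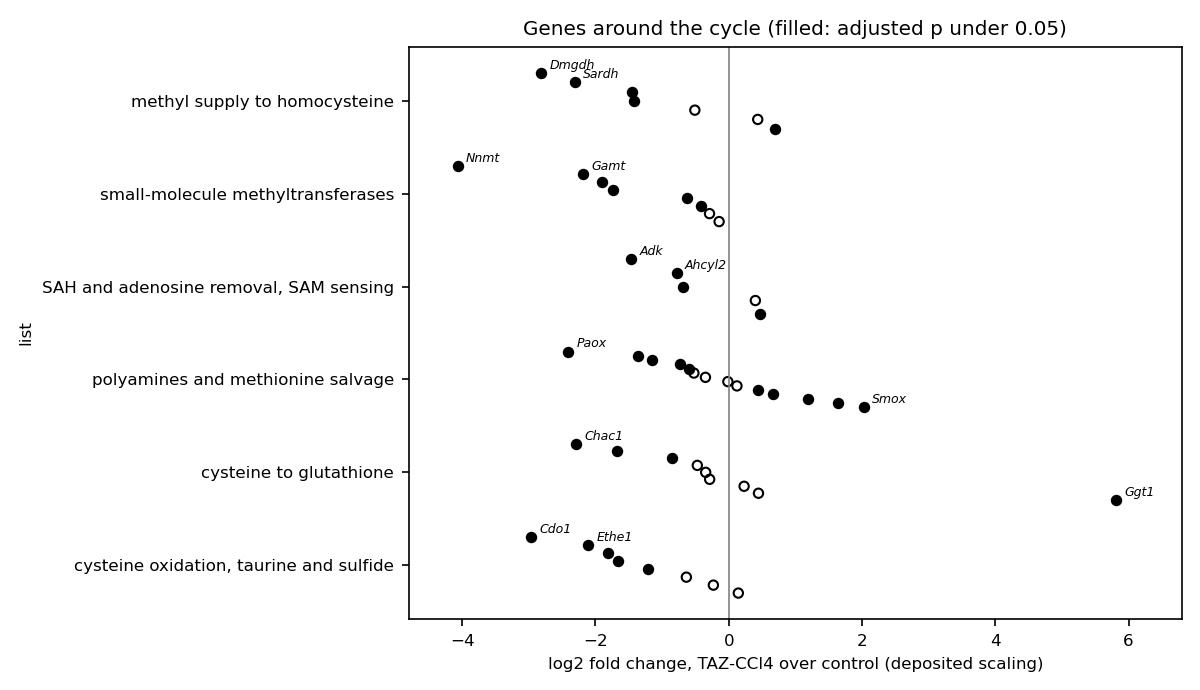
Log2 fold change at the deposited scaling of the 51 tested genes around the cycle, by list. Filled points passed at an adjusted p under 0.05, and the 2 genes named per list are labelled. Points lie mostly below 0 in the methyl supply, methyltransferase and cysteine oxidation lists and on both sides in the polyamine list.

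Marker genes of cell types were also counted, beside 29.8% of all tested genes called lower and 32.4% called higher. The median of the 8 hepatocyte markers was -1.11 on the log2 scale. That of the 10 genes was -1.16, but it pools 6 genes that fell, at -1.06 to -2.95, with 4 that did not pass. Among the hepatocyte markers 6 fell, at -0.96 (Hnf4a) to -2.88 (Ttr), and 2, Alb and Trf, did not pass. Alb was nevertheless at 1165322 to 1588051 in the controls and at 471110 to 785601 in the TAZ-CCl4 libraries, without overlap. Its log2 fold change was -1.16 (limma, adjusted p = 0.190). The groups overlapped for Trf. All 7 bile duct markers rose, with a summed level of 2299 to 2900 in the controls and 34922 to 121877 in the TAZ-CCl4 libraries. Some calls were lost when 1 library was left out: Krt19 (bile duct) without control replicate 1 or 2 or TAZ-CCl4 replicate 1, 2 or 4, Fgb (hepatocyte) without any 1 control or TAZ-CCl4 replicate 5, and Acta2 (fibroblast) without control replicate 1. Of the fibroblast markers 5 of 8 rose (sums of 2182 to 3357 and 9212 to 18140), of the macrophage markers 4 of 7 (1582 to 2805 and 8500 to 17750; without TAZ-CCl4 replicate 3 or 5, Clec4f of this list was lower) and of the dividing-cell markers 6 of 6 (643 to 865 and 1993 to 5794). Endothelial markers rose for 3 and fell for 2 (Stab2 and Clec4g) of 7 (1436 to 2722 and 1810 to 2852), 3 of 5 T and NK cell markers rose (73.1 to 94.8 and 102 to 253), and 1 of 5 B cell and plasma cell markers, Jchain, rose (80.8 to 175 and 244 to 1188). The T and NK cell markers that rose, Cd3e, Cd8a and Nkg7, had control means of 8.69, 4.42 and 6.89. They passed the filter only through the TAZ-CCl4 libraries, as did Cftr of the bile duct list, at 4.96. Cd3d and Cd4 did not pass the test. No list had a marker at 0 in all libraries. The part of these cells in the fall of the 6 genes was not tested.

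The genes whose log2 values over the 8 libraries were most like those of Mat1a were Agpat2, Ubac1 and Wdr92 (Pearson r = 0.948, 0.947 and 0.943). Those most like Mat2a were Fgfrl1, Mta2 and Ddx54 (r = 0.993, 0.954 and 0.950). These correlations describe 8 libraries of 2 groups that share depth and project within each group.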

How the data were processed

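Liver RNA of 3 control and 5 TAZ-CCl4 libraries was analysed from 1 table of normalised count signal per gene, deposited by the authors. Its name gives kallisto and DESeq2, and DESeq2 and the mm10 build are also given per the submitters' processing notes. Neither versions nor annotation nor filters were given in the sources used here. Whole reads could not be recovered: dividing the low values (under 10) by the commonest of them gave a near-whole number, to within 0.03, for 47.3% to 66.8%, so no count model was run and depth is known only as normalised totals. No 2 libraries of the same group held identical values, and without whole reads their differences could not be set against counting noise.

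Genes with a mean of at least 10 were tested as log2(value + 1) in limma 3.58.1 under R 4.3.3, with the prior variance following the mean and without covariates. The fit was checked on simulated data. Positions and transcript lengths are from GENCODE M21. The named genes are the 10 enzymes, the 2 called genes of largest change per surrounding list with a higher mean of at least 50, and the 3 genes most like Mat1a and Mat2a. The members and lists were chosen with earlier results of these data known. Alternatives were other scalings, pseudocounts, filters, limma priors, a replicate block and omission of each library. Further genes named to spell out a small count were chosen after their values were seen. One gene of the surrounding lists is not reported here by name.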

Additional observations from a re-analysis of the deposited data

Results flagged for a closer look

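A library stood apart from the other 4 of its group in 4 of the 28 genes and ratios checked, by the gap to its neighbour relative to the range. For independent, normally distributed values chance alone gives this in about 1 in 20 groups. The 28 come from the same 5 libraries and the ratios reuse the genes, so the 4 cannot be judged against that rate. Mat1a reached 52047 normalised counts in TAZ-CCl4 replicate 2, where the other 4 libraries lay at 7186 to 17616. Ahcy reached 26790 in the same library. Mtr reached 274 in TAZ-CCl4 replicate 5, and Ggt1 reached 964 in TAZ-CCl4 replicate 4.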

How the results depend on the processing

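At equal totals, at equal Alb and at quantile normalisation 2 of the 10 genes were lower, and 3, 3 and 1 were higher. Of all tested genes 6.37%, 6.33% and 29.8% were lower there and 76.3%, 68.5% and 27.8% higher. Without Mup and mitochondrial genes in the totals 3 of the 10 were higher, beside 62.9% of all tested genes. The log2 fold change of Mat1a turned positive at equal totals (0.27), equal Alb (0.18) and quantile normalisation (0.54). Mat2b turned positive at equal totals (1.18), equal upper quartiles (0.18), without Mup and mitochondrial genes (0.76), at equal Alb (1.09) and at quantile normalisation (0.13). Bhmt2 turned at equal totals (0.19) and equal Alb (0.10), and Mtr at equal totals (1.23), equal upper quartiles (0.23), without Mup and mitochondrial genes (0.82) and at equal Alb (1.14). The other factors moved the median gene from 0.03 up to between 0.27 and 1.26; quantile normalisation left it at -0.05, and the cause of the turns there was not tested. Leaving out 1 library gave 4 to 7 genes lower and 0 higher, 7623 to 8863 genes called in all, log2 changes from -0.11 to 0.044 for Mtr and -1.56 to -0.78 for the Mat1a to Mat2a balance. The balance was -0.11 at quantile normalisation (exact permutation p = 0.857), and the cause was not tested. Among the surrounding lists, a count of 1 higher gene became 2 without TAZ-CCl4 replicate 3 (SAM sensing), 4 (methyl supply) and 2 or 4 (glutathione). In the methyl supply list 5 genes were lower without TAZ-CCl4 replicate 4, and 0 were higher without control replicate 3. Without control replicate 1, 1 B cell marker was lower. Both pseudocounts, both filters and both other limma priors gave 6 lower and 0 higher.

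Same-numbered libraries did not deviate together (correlations of -0.067, -0.064 and -0.088), so the numbers do not pair them. With a replicate block over replicates 1 to 3 of both groups, 5 of the 10 genes were lower (4 in the same 6 libraries without the block) and 7345 genes were called. The balance was then -0.61 (exact test by sign flips of the 3 same-numbered differences, p = 0.5). So few differences cannot give a p under 0.05 in that test. Depth is known only as normalised totals, which limits what can be said of genes at low values such as Ggt1.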
